A study of Mus musculus with 8 samples.

Results

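Gene expression was followed after degradation of OCT4 in mouse embryonic stem (ES) cells, using the 4 libraries of the OCT4-FKBP line among the 8 libraries of the study. The line is a V6.5 ES line (C57BL/6-129 hybrid) in which OCT4 carries an FKBP tag; a dTAG compound binds such a tag and hands the fusion protein to a ubiquitin ligase, after which it is degraded. Libraries DMSO 1 and 2 came from cells given DMSO for 24 h, and libraries dTAG 1 and 2 from cells given the compound labelled dTag9 for 24 h. The other 4 libraries came from untagged V6.5 cells with normal LIF (2 libraries) or with LIF withdrawn for 5 days (2 libraries). These libraries entered the gene filter, the scaling and the estimate of the spread between replicates. All cells were grown in 2i media on gelatin, so the OCT4-FKBP cells carried the tag in both arms and both arms had the inhibitors of MEK and GSK3 that 2i holds. No untagged cells received the compound, so an effect of the compound itself and the loss of OCT4 cannot be told apart. The labels do not say whether the tagged cells are 1 clone or whether replicates are separate cultures, so the p-values given here reflect how far these libraries differ, and that spread may be technical.

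OCT4, encoded by Pou5f1, is a POU-family transcription factor that binds DNA together with SOX2 and holds ES cells in the pluripotent state. ES cells that lose OCT4 are known to leave that state, and in culture they can take on features of trophectoderm, the outer layer of the blastocyst that forms the placenta. The signals read by ES cells include FGF, WNT and Nodal ligands, and their metabolism relies on glucose, threonine and one-carbon units.

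Poly(A) RNA was read from one end over 40 bases. Counted reads came to 7221451 and 11447468 in the DMSO libraries and to 9430702 and 9179808 in the dTAG libraries. Levels are given as CPM, the reads of a gene scaled to a common library size, in the order of library 1 and library 2. A change was called where edgeR's quasi-likelihood test gave a Benjamini-Hochberg adjusted p of at most 0.05 over all 10311 tested genes. "Rose", "fell", "higher" and "lower" refer to dTAG against DMSO, and only to called genes. Where DESeq2 moved a count of a gene list by over 1.5 times, its counts are given in brackets as higher and lower. Reads listed as ambiguous were not counted. They came to 42.2 to 42.6% of the sum of counted and ambiguous reads in these 4 libraries. Genes with several RefSeq accessions may therefore be counted in part. Of 24918 gene names, 7992 had several accessions, yet genes with 1 accession held 96.25% of the counted reads of these libraries. Levels and folds of genes with several accessions may thus rest on a small part of their reads. Each such gene is given below with its number of accessions. The genes Asns, Atp1b1, Bid, Cbs, Cdh1, Cdh2, Cdk1, Ddit3, Dppa3, Dvl3, Fasn, Fkbp4, Gnl3, Has2, Hsp90aa1, Igf1r, Il6st, Jag2, Jam2, Klf6, Lamp2, Med12, Ncl, Nkx6-1, Nodal, Notch1, Nqo1, Polr1b, Ptk7, Scd1, Scd2, Sox15, Tdh, Tet1, Trib3 and Yap1 were chosen after their values were seen, and the remaining named genes by a fixed rule or as members of the runs of neighbours. In bulk RNA, fewer cells of a type and less RNA per cell cannot be told apart.

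Pou5f1 (2 accessions) was read at 77.5 and 77.8 CPM in DMSO and 84.6 and 90.2 CPM with dTAG. The log2 fold change was 0.17, with SE 0.10, edgeR adjusted p = 0.18, which did not pass; it passed without WT LIF replicate 2 and with the 4 OCT4-FKBP libraries alone. Protein levels of OCT4 were not measured in these data. Of 11 tested ES cell markers, 9 fell and 1 rose. Their summed level went from 7536 and 7496 CPM to 2579 and 2590 CPM, so both arms still held ES cell transcripts while the dTAG libraries held fewer. Nanog and Esrrb, 2 defining markers, had 0 counted reads in these 4 libraries, and the cause was not tested. A count of 0 for a marker, here or below, therefore does not show that the gene was silent.

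The response was broad and about equal in both directions. Of 10311 tested genes, 4175 were called (40.5%), 2077 higher (20.1%) and 2098 lower (20.3%). The filter that set the tested genes used all 8 libraries, so these shares depend on the untagged cells too. With the 4 OCT4-FKBP libraries alone, 9129 genes were tested, of which 2318 were higher and 2344 lower. At least 2-fold changes were called for 599 genes upward (5.81%) and 716 downward (6.94%), and the median log2 fold change of all tested genes was 0.00. Calls became more frequent with depth: of genes with a mean under 1 CPM, 5.87% rose and 9.21% fell, and of genes at 100 CPM or more, 28.6% rose and 27.6% fell.

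The 12 largest increases among genes averaging at least 5 CPM, with groups that do not overlap, spanned signalling, matrix and transcription. Ptn, Pcdh18, Fgfbp3 and Zfp503 reached that mean through the dTAG libraries, and their folds rest on low DMSO levels. Ptn, the secreted growth factor pleiotrophin, was read at 0.983 and 1.23 CPM in DMSO and 47.7 and 43.4 CPM with dTAG. It was thus almost unread in DMSO (log2 fold change 5.31, with SE 0.19, edgeR adjusted p = 1.1e-17). Frem2, an extracellular matrix protein of epithelial basement membranes, was read at 13.9 and 12.9 CPM in DMSO and 441 and 425 CPM with dTAG. Pcdh18, a protocadherin, was read at 0.1404 and 0.352 CPM in DMSO and 9.96 and 9.65 CPM with dTAG. Both genes rose over 30-fold in the fit, by 32.5-fold and 34.6-fold. Fgfbp3, which carries FGF in the extracellular space, rose 24.2-fold from 1.82 and 0.968 to 31.2 and 32.6 CPM. Zfp503, a zinc finger repressor, rose 24.6-fold from 0.562 and 0.352 to 10.3 and 11.6 CPM. The remaining increases of this size were Dkk4, Cyp1b1, Ihh (2 accessions), Osbp2 (3 accessions), Gata6, Phlda1 and Sprr2a3, whose relatives are nearly identical, so that its reads may be shared out among them.

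Among the 12 largest decreases, Rasgrp1, which activates RAS, was read at 73.7 and 71.4 CPM in DMSO and 2.63 and 2.11 CPM with dTAG. Its log2 fold change was -4.93, with SE 0.15, edgeR adjusted p = 1.1e-19. Hal, which breaks down histidine, fell from 40.99 and 42.1 to 2.08 and 1.66 CPM. Tafa4, a small secreted protein, fell from 33.6 and 33.9 to 0.985 and 1.55 CPM, and Stc2, the hormone stanniocalcin 2, from 14.6 and 12.4 to 0.985 and 0.444 CPM. The folds of these genes, in the order named, were 30.4, 22.1, 26.4 and 18.3. The rule that picked them required groups that do not overlap, so their separation was set by the choice. Also in this group were Olig2, Aoah (2 accessions), Sfrp1, Ntn1, Lefty2 and Pou2f3, and with them Pramel30, which also has close copies, and Rbfaos, an antisense gene whose reads cannot be told from those of its sense partner while the strand setting of the counting is unknown. Jam2, a junctional adhesion molecule, fell 16.2-fold, from 483 and 477 to 29.2 and 30.1 CPM.

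Transcription factor genes fell more often than tested genes at large: of 575 tested, 100 rose (17.4%) and 162 fell (28.2%), with a median log2 fold change of -0.09. The POU family, to which OCT4 belongs, had 0 of 9 tested members higher and 5 lower (DESeq2 0 and 3). Pou2f3, a factor of sensory epithelial cells, was read at 23.7 and 22.7 CPM in DMSO and 0.766 and 1.77 CPM with dTAG and fell 18.1-fold (edgeR adjusted p = 1.3e-13). Pou3f1, a factor of the primed epiblast, fell from 4.77 and 3.696 to 0.766 and 1.11 CPM.

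Among 12 SOX genes, 4 rose and 4 fell. Sox2 fell 2.24-fold, from 854 and 835 to 371 and 384 CPM, and Sox13 2.05-fold, from 156 and 154 to 77.9 and 73.2 CPM. Sox11, a factor of neural and mesenchymal progenitors, moved the other way, from 6.18 and 7.92 to 46.7 and 41.3 CPM, a log2 fold change of 2.60, with SE 0.13, edgeR adjusted p = 2.9e-15. Sox15 rose 1.71-fold, from 16.4 and 14.7 to 26.2 and 26.7 CPM. Sox1, a close relative of Sox2 that marks neural progenitors, was read at 3.65 and 2.38 CPM in DMSO and 0.328 and 0.222 CPM with dTAG and fell 10.02-fold.

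KLF and SP factors, zinc finger proteins that bind GC-rich promoters, moved mainly down: 9 of 18 fell and 3 rose. Klf2 fell from 318 and 304 to 70.2 and 63.4 CPM and Klf5 from 287 and 249 to 109.7 and 117 CPM, folds of 4.65 and 2.36. The 3 that rose were Sp5, Sp6 and Klf6. Sp5, a target of WNT signalling, was read at 42.8 and 44.2 CPM in DMSO and 243 and 237 CPM with dTAG, and Sp6 at 42.5 and 35.7 CPM in DMSO and 303 and 281 CPM with dTAG. The groups did not overlap in either gene, and the folds were 5.499 and 7.55 (edgeR adjusted p = 1.6e-19 and 4.8e-20).

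Homeobox genes outside the HOX and POU groups moved both ways, 13 of 55 higher and 17 lower. The muscle-segment homeobox genes rose together: Msx1 was read at 2.95 and 2.38 CPM in DMSO and 55.6 and 57.9 CPM with dTAG, and Msx2 at 3.37 and 2.55 CPM in DMSO and 16.96 and 16.1 CPM with dTAG. Their folds were 21.7 and 5.72, and in the parental line with LIF Msx1 stood at 4.15 and 4.35 CPM, near its DMSO level. Rhox6 and Rhox9, X-linked homeobox genes of placenta and gonad, rose 4.79-fold and 5.42-fold. Tlx2 rose 3.41-fold, from 11.1 and 10.6 to 38.4 and 35.2 CPM. Nkx6-1, a neural and pancreatic factor, went from 3 reads over both DMSO libraries to 78 over both dTAG libraries, which is 26.5-fold once scaled (exact 95% interval 8.73 to 131, counting error only).

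Of 23 tested HOX and caudal genes, 8 rose and 5 fell (DESeq2 6 and 3). Besides Cdx2, which rose from 30.7 and 35.03 to 192 and 169 CPM, 6 of the genes that rose lie in the Hoxc cluster, and of these Hoxc4, Hoxc5 and Hoxc8 rose 2.596-fold, 4.61-fold and 3.89-fold. Hoxb9 was read at 14.5 and 15.7 CPM in DMSO and 40.4 and 43.4 CPM with dTAG. Hoxd13, a factor of the distal limb, was read at 6.88 and 7.04 CPM in DMSO and 2.74 and 1.996 CPM with dTAG, so the Hoxd gene fell while Hoxb9 rose.

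In the forkhead family 7 of 21 rose and 6 fell (DESeq2 7 and 3). Foxd3, a factor of pluripotent and neural crest cells, was read at 11.1 and 11.9 CPM in DMSO and 0.876 and 0.887 CPM with dTAG; dTAG minus DMSO was -3.69, with SE 0.26, edgeR adjusted p = 6.8e-12 on the log2 scale. Foxo4, a factor restrained by AKT, rose 2.17-fold, from 58.3 and 54.1 to 128 and 115 CPM. Gata6, which directs primitive endoderm, rose from 0.281 and 0.792 to 20.6 and 16.9 CPM. Of 9 T-box genes, 0 rose and 5 fell (DESeq2 0 and 3), Tbx3 (2 accessions) among them, from 6.88 and 8.27 to 2.85 and 2.99 CPM. Among the 8 tested ZIC and GLI genes, Gli2, a hedgehog effector, fell 3.01-fold, and Zic1 rose from 0 and 0.8801 to 11.5 and 11.9 CPM while Zic2 and Zic5 fell 4.15- and 5.17-fold.

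Among 16 bHLH factors of tissue identity, 3 rose and 6 fell (DESeq2 1 and 5). Olig1 fell with its neighbour Olig2, from 28.2 and 27.99 to 2.298 and 2.66 CPM. Ascl2, a factor of the trophoblast, rose 10.5-fold, from 1.12 and 1.41 to 13.6 and 13.97 CPM. Grhl3, a grainyhead factor of epithelia, rose 2.41-fold, from 84.1 and 82.5 to 209 and 192 CPM, whereas its relative Tfcp2l1 fell 3.48-fold. Of 15 ETS genes, 3 rose and 7 fell. Ehf, an epithelial ETS factor, went from 66 reads over the DMSO libraries to 1 over the dTAG libraries, 64.8-fold lower (exact 95% interval 11.2 to 2598), while Elf3 (2 accessions), also epithelial, rose from 6.04 and 5.37 to 12.9 and 10.6 CPM.

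Immediate early factors, which ERK and stress signals induce within minutes, rose in part. Egr1 was read at 1.82 and 3.52 CPM in DMSO and 29.2 and 47.4 CPM with dTAG, so the dTAG libraries differed from each other and both lay above both DMSO libraries (log2 fold change 3.74, with SE 0.32, edgeR adjusted p = 4e-10). Fos, Jun and Fosl2 rose 7.91-, 3.67- and 8.39-fold. Atf3, a stress-induced ATF factor, fell 7.46-fold. In the parental line with LIF, Egr1 was read at 20.6 and 42.2 CPM and Fos at 12.3 and 17.3 CPM, ranges that overlap those with dTAG. Mycn, the MYC family member of ES cells, fell from 189.9 and 177 to 62.6 and 61.3 CPM, and Mxd4, an antagonist of MYC, rose from 1.82 and 1.23 to 9.85 and 7.99 CPM.

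Numbered zinc finger genes, a large group that holds many repressors of repeated DNA, fell more often than they rose. Of 252 tested, 68 fell (27%) and 28 rose (11.1%), against 20.3% and 20.1% of all tested genes. The other 156 were not called, and the median was -0.09. Zfp459 and Zfp534 fell 3.64- and 2.39-fold. Zfp462 rose 2.27-fold, from 154 and 136 to 339 and 314 CPM. Prdm14, which represses FGF signalling and DNA methylation in naive cells, fell 2.67-fold, from 117 and 122 to 46.95 and 42.6 CPM, and Snai1, a repressor of epithelial genes, rose 3.76-fold, from 4.07 and 3.34 to 14.2 and 13.2 CPM.

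Promoters of 4 genes, chosen after their values were seen, are printed because their transcripts moved in both directions and each window holds a searched motif. They are the 250 bases before the annotated start in RefSeq (GRCm38.p6), 5′ to 3′ on the strand of the gene, and capitals mark the motif. Zfp42 encodes REX1, and its window is chr8:43307010-43307259 on the minus strand; the octamer lies on the opposite strand, 186 bases before the start. Cdx2 has the window chr5:147307250-147307499 on the minus strand, with the octamer as printed, 147 bases before the start. Gadd45g, a stress-induced growth regulator, has the window chr13:51846425-51846674 on the plus strand, with the octamer on the opposite strand, 103 bases before the start. Sp5 has the window chr2:70474673-70474922 on the plus strand, with the TCF motif as printed, 104 bases before the start.
Zfp42: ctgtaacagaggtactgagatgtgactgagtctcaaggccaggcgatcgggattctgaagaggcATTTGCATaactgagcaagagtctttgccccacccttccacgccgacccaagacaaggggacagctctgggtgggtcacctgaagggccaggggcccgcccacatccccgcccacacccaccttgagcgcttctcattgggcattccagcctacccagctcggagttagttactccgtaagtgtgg
Cdx2: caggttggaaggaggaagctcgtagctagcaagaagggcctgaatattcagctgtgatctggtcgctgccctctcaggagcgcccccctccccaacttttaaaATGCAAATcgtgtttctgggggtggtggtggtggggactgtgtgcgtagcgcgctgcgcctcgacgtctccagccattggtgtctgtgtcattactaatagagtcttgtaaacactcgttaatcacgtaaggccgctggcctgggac
Gadd45g: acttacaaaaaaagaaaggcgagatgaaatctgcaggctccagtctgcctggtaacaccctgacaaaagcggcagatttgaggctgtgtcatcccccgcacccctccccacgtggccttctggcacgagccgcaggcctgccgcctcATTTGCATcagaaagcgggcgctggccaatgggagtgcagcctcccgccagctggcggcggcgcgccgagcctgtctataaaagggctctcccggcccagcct
Sp5: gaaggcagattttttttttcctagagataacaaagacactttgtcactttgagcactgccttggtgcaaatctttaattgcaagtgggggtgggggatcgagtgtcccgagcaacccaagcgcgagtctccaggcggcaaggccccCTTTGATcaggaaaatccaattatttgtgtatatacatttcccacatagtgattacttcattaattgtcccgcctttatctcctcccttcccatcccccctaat
Zfp42 fell 2.17-fold, from 503 and 516 to 237 and 232 CPM, while Cdx2 and Gadd45g rose 5.43- and 14.9-fold, so the same 8 letters stood before genes that moved in opposite directions. Gadd45g went from 4.07 and 2.82 to 48.3 and 50.8 CPM. The octamer ATGCAAAT was searched on both strands and found in 1.62% of 27025 RefSeq promoters of this length, and the TCF motif CTTTGAT in 3.26%. A match is a description of the letters and not a measured binding site. Promoters could be matched for 78.07% of tested genes, 77.96% of those at least 2-fold higher and 73.04% of those at least 2-fold lower. A comparison of motif shares between these groups was therefore void, because under 80% of genes had a promoter in the table.

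Genes for secreted ligands and their antagonists moved in both directions, 28 higher (25.7%) and 25 lower (22.9%) of 109 tested. Of these, 24 and 21 changed at least 2-fold, against 599 of 2077 and 716 of 2098 over all tested genes. Such shares vary with level: below 1 CPM all 74 higher and 116 lower calls were at least 2-fold. The part of level in the ligand counts was not tested. FGF ligands, which drive ERK signalling, had 0 of 9 members higher and 3 lower. Fgf4, the FGF of ES cells, was read at 379 and 403 CPM in DMSO and 76.7 and 82.7 CPM with dTAG, and Fgf10 at 51.5 and 49.9 CPM in DMSO and 8.21 and 7.54 CPM with dTAG. The DMSO libraries held 4.91-fold and 6.42-fold more, and the parental line with LIF had 773 and 801 CPM of Fgf4, above both OCT4-FKBP groups. Of the FGF receptors and co-receptors, 2 of 4 rose: Fgfrl1 (2 accessions), a receptor without a kinase domain, went from 3.23 and 3.52 to 19.2 and 20.96 CPM, and Fgfr2 (3 accessions) from 0.281 and 0.264 to 1.75 and 1.44 CPM.

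In the TGF-beta family, 3 of 15 ligand genes rose and 7 fell (DESeq2 1 and 6). Gdf3, a Nodal-like ligand, was read at 376 and 362 CPM in DMSO and 127 and 130.0 CPM with dTAG. Nodal itself fell 1.68-fold, from 91.8 and 95.05 to 58.1 and 53.2 CPM, and its inhibitors Lefty1 and Lefty2 fell 12.8- and 27.8-fold. Tdgf1, the Nodal co-receptor, went from 601 and 604 to 45.5 and 54.2 CPM, so ligand, co-receptor and inhibitors were all lower with dTAG. Gdf11, a relative of myostatin, rose 3.72-fold, from 7.3000 and 8.097 to 29.8 and 28.1 CPM. Among secreted antagonists 7 of 19 rose and 4 fell. Fstl3, which binds activins, rose from 1.54 and 1.67 to 7.77 and 7.098 CPM, and Fstl1 fell from 19.1 and 20.8 to 8.43 and 6.99 CPM.

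The WNT pathway changed at several levels. Of 9 WNT ligand and R-spondin genes, 3 rose and 1 fell, or 2 and 1 with DESeq2 or with library size only. Wnt4, among the 3, had 1 read in DMSO and 8 with dTAG, 8.15-fold higher (exact interval 1.09 to 361, counting error only). Its call was lost in 7 of the alternatives described below. Wnt6 was read at 1.68 and 3.08 CPM in DMSO and 41.04 and 39.6 CPM with dTAG, which is 15.9-fold higher with dTAG. Wnt16 had 0 reads in DMSO and 30 with dTAG, at least 10.2-fold higher against a floor of 3 reads over the group. Of 17 frizzled and co-receptor genes, 8 rose and 3 fell: Fzd3 rose 3.44-fold, from 16.004 and 14.7 to 50.8 and 54.2 CPM, and Ror2, a receptor for WNT5A, 2.08-fold, from 126 and 116 to 259 and 243 CPM. The ubiquitin ligase genes Rnf43 and Znrf3 (2 accessions) of this list, which remove frizzled receptors from the membrane, rose 6.69- and 2.17-fold, Rnf43 from 8.84 and 8.54 to 55.5 and 60.6 CPM. Lgr4, an R-spondin receptor, fell 2.19-fold, from 146 and 147 to 67.1 and 66.3 CPM. The antagonists went apart: Notum, which removes the lipid from WNT proteins, was read at 71.03 and 68.1 CPM in DMSO and 205 and 197 CPM with dTAG, Dkk4 went from 1 read in DMSO to 301 reads with dTAG, and Sfrp1 fell 40.3-fold.

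Intracellular genes of WNT signalling and its feedback also rose. Of 13 tested, 9 rose and 0 fell, with a median log2 fold change of 0.91. Axin2, a scaffold of the beta-catenin destruction complex, was read at 162 and 148 CPM in DMSO and 850.4 and 806 CPM with dTAG. Nkd1 (2 accessions), which inhibits dishevelled, went from 0.281 and 0.176 to 3.83 and 4.21 CPM. Both genes were higher in both dTAG libraries than in both DMSO libraries. The 9 also hold Sp5 and, as genes that carry the signal rather than limit it, Dvl3 (2 accessions) and Ctnnb1 (2 accessions), the latter for beta-catenin. The call of Ctnnb1 (log2 fold change 1.57) was lost without DMSO replicate 2 (1.14, edgeR adjusted p = 0.099) and without dTAG replicate 2 (0.56, adjusted p = 0.47). The list was chosen with earlier results known, and its direction is a description.

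Contact and guidance signals also moved. Of 6 ephrin genes, which signal to EPH receptors on neighbouring cells, 4 rose and 0 fell. Efnb3 was read at 10.9 and 12.1 CPM in DMSO and 41.4 and 36.3 CPM with dTAG and Efna4 at 33.97 and 32.8 CPM in DMSO and 76.1 and 73.3 CPM with dTAG. Among EPH receptors 1 of 6 rose and 2 fell. Epha2 and Epha4 fell 4.34- and 2.28-fold, from 138 and 143 to 33.7 and 31.1 and from 422 and 405 to 183 and 179.8 CPM. Of 4 Notch ligands, 2 fell. Jag1 fell from 35.8 and 33.2 to 6.68 and 7.32 CPM and Jag2 from 26.1 and 26.4 to 14.3 and 15.5 CPM. Of 4 Notch receptors, 3 fell and 1 rose: Notch4 went from 14.6 and 12.8 to 3.06 and 3.77 CPM and Notch3 from 59.7 and 61.96 to 27.9 and 30.4 CPM, while Notch1 rose 1.24-fold.

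Of 3 tested hedgehog ligand genes, 2 rose. Shh had 0 reads in DMSO and 28 with dTAG, at least 9.504-fold higher against a floor of 3 reads over the group, and Ihh was read at 0.1404 and 0.44004 CPM in DMSO and 25.1 and 24.4 CPM with dTAG. Of 4 hedgehog receptor and co-receptor genes, 2 rose and 1 fell (DESeq2 1 and 1). The member that fell was the co-receptor gene Boc, 2.897-fold, from 7.44 and 7.04 to 2.85 and 2.11 CPM. Ntn1, a netrin that guides axons, fell from 14.6 and 13.99 to 0.438 and 0.333 CPM. Robo1, a receptor for SLIT proteins, rose 2.19-fold, from 75.1 and 67.5 to 156 and 154 CPM.

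Of 18 genes for growth factors of receptor tyrosine kinases, 2 rose and 4 fell; the share lower was near the 20.3% of all tested genes. Vegfc, a lymphatic growth factor, was read at 38.6 and 38.8 CPM in DMSO and 4.71 and 4.66 CPM with dTAG, and Pdgfa at 70.8 and 68.6 CPM in DMSO and 20.4 and 20.4 CPM with dTAG. Of 16 other receptor tyrosine kinase genes, 2 rose and 7 fell (DESeq2 1 and 7). Ddr2, a collagen receptor, fell 3.83-fold, from 42.1 and 44.7 to 11.9 and 10.8 CPM, and Ntrk3 (2 accessions), a neurotrophin receptor, from 6.18 and 6.78 to 0.547 and 0.665 CPM. Igf1r, the receptor of IGF1, fell 1.81-fold. Ptk7, a planar polarity receptor without kinase activity, rose 1.98-fold, from 225 and 215 to 446 and 424 CPM.

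**Figure D1:**
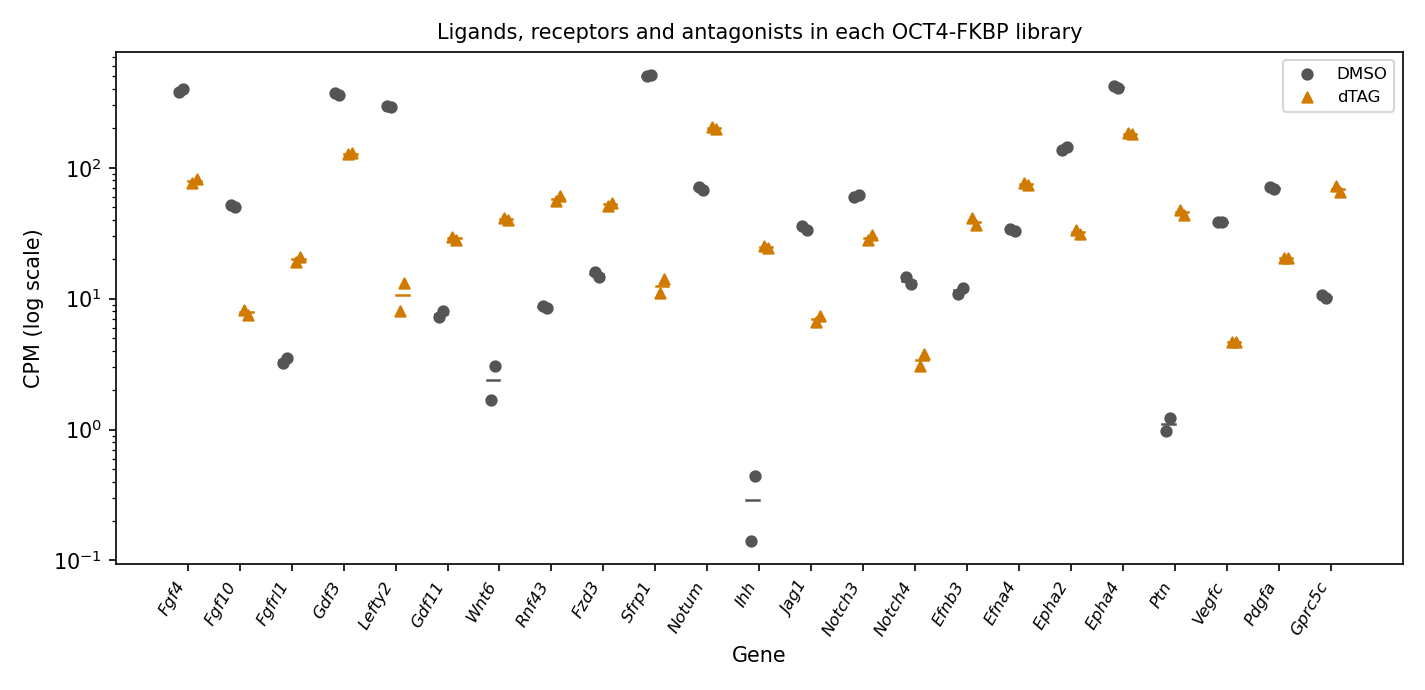
CPM (log scale) of 23 ligand, receptor and antagonist genes in each OCT4-FKBP library; circles are DMSO, triangles dTAG, and short lines the mean of the 2 libraries of a group. Library values of a group lie close together against the distance between the groups, Fgf4, Lefty2, Sfrp1 and Vegfc being lower and Wnt6, Ihh, Ptn and Gprc5c higher with dTAG.

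Of 29 cytokine and TNF receptor genes, 10 rose and 5 fell. Both chains of the interferon-gamma receptor rose, Ifngr1 from 7.44 and 7.92 to 18.1 and 15.9 CPM and Ifngr2 from 7.44 and 9.59 to 20.6 and 17.4 CPM. Il6st, the gp130 chain through which LIF signals, fell 1.71-fold, from 197 and 184 to 108 and 115 CPM. The cytokine gene Osm, a ligand that also signals through gp130, rose 2.61-fold, from 13.2 and 13.03 to 35.3 and 33.2 CPM. Tnfrsf8 (CD30), a receptor often used to mark pluripotent cells, fell 6.81-fold, from 12.8 and 10.9 to 1.42 and 1.996 CPM.

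Of 43 genes of G protein-coupled receptors outside the adhesion class, 9 rose and 10 fell (DESeq2 8 and 6), shares near the 20.1% and 20.3% of all tested genes. Gprc5c (3 accessions), an orphan receptor induced by retinoids, was read at 10.7 and 10.03 CPM in DMSO and 72.2 and 65.5 CPM with dTAG. Gpr20 rose 4.72-fold, from 3.37 and 2.64 to 13.8 and 13.97 CPM. Galr2, a galanin receptor, had 24 reads in DMSO and 0 with dTAG, at least 7.86-fold lower against a floor of 3 reads over the group. Downstream of such receptors, 2 of 10 genes for phosphodiesterases and adenylate cyclases rose and 4 fell (DESeq2 1 and 4). Pde4d, which breaks down cAMP, fell from 13.1 and 12.3 to 1.09 and 2.44 CPM, and Adcy1, which makes it, from 7.44 and 5.72 to 1.64 and 1.11 CPM.

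Of 22 Sprouty, SPRED and dual-specificity phosphatase genes, many of them feedback regulators of ERK, 5 rose and 6 fell (DESeq2 5 and 4), not far from the 20.1% and 20.3% of all tested genes. Dusp9, a phosphatase of ERK, rose 3.14-fold, and Spry2, an inhibitor of receptor tyrosine kinase signalling, fell 2.33-fold, from 204 and 211 to 91.3 and 87.2 CPM. In the Hippo list, Amot (2 accessions), which binds YAP at junctions, went from 2.67 and 3.78 to 39.5 and 37.3 CPM, while Amotl1, its relative, fell from 122.7 and 115 to 47.3 and 43.03 CPM. Ccn2, a target of YAP, fell 6.41-fold, from 51.4 and 56.9 to 7.44 and 9.54 CPM, and Yap1 itself (2 accessions) rose 1.91-fold.

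Some regulators of the actin cytoskeleton moved by large folds. Arhgap31, which inactivates CDC42 and RAC1, was read at 2.39 and 1.496 CPM in DMSO and 40.7 and 37.6 CPM with dTAG; dTAG minus DMSO was 4.40, with SE 0.19, edgeR adjusted p = 2.6e-16 on the log2 scale. Rhob rose 3.39-fold, from 51.5 and 50.96 to 174 and 173 CPM, and Rnd3, which opposes RHOA, fell 3.94-fold, from 135 and 126 to 35.02 and 31.3 CPM. Of 40 interferon-stimulated and antigen presentation genes, 4 rose and 11 fell (DESeq2 2 and 9). Ddx58, which encodes the RNA sensor RIG-I, fell 4.25-fold, from 22.3 and 20.2 to 4.596 and 5.32 CPM.

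Adhesion, matrix and cytoskeleton genes rose slightly more often than they fell, 78 against 65 of 293. Of 18 claudin and tight junction genes, 8 rose and 1 fell (DESeq2 7 and 0), with a median of 0.48. Cldn6, a claudin of early epithelia, was read at 25.6 and 21.4 CPM in DMSO and 105 and 94.2 CPM with dTAG, and Cldn4 at 181 and 174 CPM in DMSO and 427 and 430.2 CPM with dTAG. Cldn9 rose from 2.11 and 2.29 to 12.9 and 11.5 CPM. Gja1, the gap junction protein connexin 43, rose 2.62-fold, from 230.2 and 233.6 to 615 and 599.6 CPM, and Jup, plakoglobin of desmosomes and adherens junctions, fell 2.33-fold, from 231 and 231 to 99.8 and 98.3 CPM. Cdh1, E-cadherin, fell 1.204-fold, from 2364 and 2299 to 1946 and 1928 CPM, and Cdh2, N-cadherin, rose 1.999-fold, from 13.8 and 13.6 to 25.6 and 29.2 CPM.

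Of 9 keratin genes 4 rose, all keratins of simple epithelia, and 2 fell. Krt7 was read at 0.281 and 0.616 CPM in DMSO and 10.4 and 11.3 CPM with dTAG and Krt8 at 17.1 and 15.7 CPM in DMSO and 47.5 and 48.2 CPM with dTAG. Krt19 (2 accessions) rose 7.91-fold and Krt18 1.91-fold. Trophoblast markers, a list that itself holds Cdx2, Ascl2, Krt7, Krt8, Krt18, Rhox6 and Rhox9, moved with these genes: of 12 tested, 8 rose and 1 fell, and their summed level went from 93.1 and 96.3 CPM to 350 and 325 CPM. The defining markers Gata3 and Tpbpa had 0 reads in these libraries. As for Nanog and Esrrb, such counts do not show that these genes were silent. The part of trophoblast markers in the epithelial increases was not tested.

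Of 12 integrin genes, 2 rose, 2 fell and 8 were not called. Itga1, the alpha chain of a collagen and laminin receptor, was read at 7.72 and 6.601 CPM in DMSO and 86.8 and 89.6 CPM with dTAG and rose 12.5-fold (edgeR adjusted p = 9.1e-18). Of 38 laminin, collagen and related genes, 12 rose and 10 fell. Lamb1 rose from 63.6 and 60.5 to 430.2 and 384 CPM and Lama5 from 431 and 521 to 1308 and 1340.0 CPM, while Lama1 fell from 322 and 321 to 95.7 and 91.6 CPM. Thus the beta1 and alpha5 chains of laminin rose and the alpha1 chain fell, by 6.58-, 2.77- and 3.43-fold. Nid2, which links laminin to collagen IV, fell 2.005-fold, from 779.5 and 749 to 381 and 381 CPM. Primitive endoderm markers, which include Lamb1, Lama1 and Gata6, moved beside this with 4 higher and 1 lower of 8 tested. Their summed level was 401.5 and 401.8 CPM in DMSO against 594 and 547 CPM with dTAG. Gata4, Foxa2 and Dab2 had 0 reads, which does not show that they were silent. The part of these markers was not tested.

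Proteases and their inhibitors had 11 genes higher and 17 lower of 68. Mmp15, a membrane-bound matrix metalloprotease, rose 4.64-fold, from 47.5 and 42.9 to 216 and 200.3 CPM. The membrane serine protease genes Tmprss2 and Prss8 rose from 1.12 and 0.968 to 20.8 and 17.9 CPM and from 15.2 and 13.3 to 43.4 and 43.4 CPM. Ctsc (2 accessions), the lysosomal protease cathepsin C, fell 3.19-fold, from 108 and 102 to 32.3 and 33.5 CPM. Serpin genes, many of which have near-identical copies, moved both ways: Serpinb9b rose 3.24-fold and Serpinb6c fell 3.85-fold.

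Genes of metabolism and transport numbered 841 tested, of which 176 rose and 205 fell, near the shares over all genes. Within glycolysis the steps moved apart. Slc2a3, the glucose transporter GLUT3, was read at 7561 and 7333 CPM in DMSO and 20363 and 18542 CPM with dTAG, and Slc2a1, GLUT1, at 306 and 303 CPM in DMSO and 922 and 838 CPM with dTAG. Both transporters rose, by 2.61- and 2.89-fold. Hk2, hexokinase 2, which phosphorylates glucose after entry, fell 2.23-fold, from 1869.5 and 1785 to 844 and 796 CPM. Pfkp (2 accessions), a phosphofructokinase, fell from 29.9 and 31.9 to 13.8 and 11.3 CPM. In all, 5 of 20 glycolysis genes rose and 7 fell.

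Of 78 respiratory chain genes, 5 rose and 11 fell (DESeq2 2 and 6), 0 of them 2-fold. Of 66 mitochondrial ribosomal protein genes 0 rose and 15 fell (DESeq2 0 and 9), with a median of -0.08. Ndufaf4, an assembly factor of complex I, fell 1.67-fold, from 69.8 and 79.4 to 44.5 and 45.4 CPM. Of 24 citric acid cycle and related genes, 4 rose and 4 fell. Pck2, the mitochondrial enzyme that turns oxaloacetate into phosphoenolpyruvate, fell 4.12-fold, from 121 and 125 to 31.4 and 28.4 CPM.

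Amino acid and one-carbon genes fell more often than they rose. Of 29 genes of serine, glycine, threonine and one-carbon metabolism, 15 fell and 8 rose, with a median of -0.52. Phgdh, the first enzyme of serine synthesis, was read at 53.3 and 64.2 CPM in DMSO and 17.9 and 19.9 CPM with dTAG, and Psph, the last, at 61.2 and 60.5 CPM in DMSO and 27.6 and 27.2 CPM with dTAG. Tdh, threonine dehydrogenase, on which mouse ES cells depend, fell 1.93-fold, from 949 and 909.8 to 480.3 and 485 CPM. Aldh1l2, a mitochondrial folate enzyme, fell from 5.896 and 6.34 to 0.328 and 0.333 CPM, and Mthfd2 2.57-fold. Bhmt, which remethylates homocysteine with betaine, moved the other way, from 19.2 and 16.5 to 50.2 and 59.4 CPM, and Cbs (3 accessions), which removes homocysteine, rose 5.42-fold.

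Of 27 genes for other amino acids, 11 fell and 2 rose. Asns, asparagine synthetase, fell 1.78-fold, from 2210.2 and 2179.9 to 1237 and 1222 CPM, and Gpt2, a mitochondrial alanine transaminase, 3.28-fold, from 250.4 and 253 to 74.97 and 78.7 CPM. Glul, glutamine synthetase, rose 2.72-fold, from 221 and 226 to 628 and 589.6 CPM. Amino acid transporters followed with 7 of 19 lower and 4 higher: Slc7a5, the LAT1 transporter of large neutral amino acids, fell 2.22-fold, from 845 and 826 to 388 and 364 CPM. Slc7a11, the cystine importer, fell from 6.32 and 5.46 to 1.204 and 0.998 CPM. Aminoacyl-tRNA synthetases, which charge tRNAs, had 2 of 29 higher and 10 lower (DESeq2 1 and 10).

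Many of these genes are targets of ATF4 in the integrated stress response. Of the 25 tested genes of that list, which shares members with the amino acid lists, 1 rose and 18 fell, with a median of -1.36, and 15 fell at least 2-fold. DESeq2 gave 0 and 16, and scaling by library size only gave 0 and 18. The 15 include Ddit3 (2 accessions), with 0 and 6 reads in the DMSO libraries and 0 in both dTAG libraries. Its call was lost in 9 of the alternatives described below. Chac1, which breaks down glutathione, was read at 25.7 and 24.03 CPM in DMSO and 2.63 and 3.22 CPM with dTAG, and Nupr1, a stress-induced nuclear protein, at 59.9 and 66.2 CPM in DMSO and 22.4 and 25.1 CPM with dTAG. Trib3, a pseudokinase induced in the same response, fell 1.95-fold, from 71.2 and 66.1 to 34.9 and 35.3 CPM.

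Lipid genes included 21 higher and 15 lower of 53. Among enzymes that make or desaturate fatty acids, 3 chosen for their increase rose: Fasn 1.36-fold, from 2049.9 and 2019 to 2836 and 2717 CPM, Scd1 1.75-fold, from 1213 and 1169 to 2116 and 2053 CPM, and Scd2 1.51-fold, from 3868 and 3720.4 to 5844 and 5602 CPM. Genes around the entry of fatty acids into mitochondria moved both ways. Cpt1a, which carries fatty acids toward mitochondria, was read at 271 and 267 CPM in DMSO and 114 and 113 CPM with dTAG, and Acacb, which makes the malonyl-CoA that restrains CPT1, at 305 and 314 CPM in DMSO and 126 and 141 CPM with dTAG; both fell. Slc25a20, the carnitine carrier that acts after CPT1, rose 2.46-fold, from 193 and 195 to 485 and 471 CPM. Soat1, which esterifies cholesterol for storage, was read at 23.6 and 24.4 CPM in DMSO and 259.7 and 231 CPM with dTAG and rose 10.2-fold (edgeR adjusted p = 2.3e-21). Of 24 genes of sterol synthesis and uptake, 9 rose and 5 fell. Ugcg, which makes glucosylceramide, rose 2.45-fold, from 244 and 239 to 583 and 598 CPM.

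Redox and metal genes rose more often than they fell. Of 39 glutathione, NRF2 and redox genes, 11 rose and 3 fell, and of 25 genes of metallothioneins and iron and zinc handling, 10 rose and 3 fell. Gpx2, a glutathione peroxidase of epithelia, was read at 58.1 and 60.5 CPM in DMSO and 229 and 225 CPM with dTAG, and Srxn1, sulfiredoxin, at 74.7 and 73.6 CPM in DMSO and 199.5 and 194 CPM with dTAG. Nqo1, a quinone reductase, rose 1.97-fold, from 293 and 281 to 554 and 577 CPM. The metallothionein genes Mt1 and Mt2, which bind zinc and copper, rose 2.21- and 2.26-fold, Mt1 from 401 and 362 to 826 and 858 CPM and Mt2 from 787 and 754 to 1713 and 1763 CPM. Slc11a1, a metal transporter of phagosomes, rose 3.06-fold, and Slc40a1, the iron exporter ferroportin, 4.33-fold.

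Among xenobiotic enzymes, 6 of 28 rose and 8 fell (DESeq2 3 and 7). Cyp1b1 was read at 1.12 and 1.76 CPM in DMSO and 145 and 147 CPM with dTAG. Cyp2b23, of a family with close copies, was read at 36.5 and 36.5 CPM in DMSO and 1.97 and 2.11 CPM with dTAG, so these 2 cytochrome P450 genes moved in opposite directions. Abcb1a and Abcb1b, the paralogous genes of the drug efflux pump P-glycoprotein, fell 3.59- and 5.59-fold; reads from such similar genes may be split between them. Crabp2, which binds retinoic acid, rose from 0.421 and 1.67 to 7.99 and 9.09 CPM.

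Genes of the V-ATPase proton pump and the lysosome rose by small steps. Of 24 tested, 11 rose and 1 fell, with a median of 0.22 and 0 of them 2-fold. Lamp2 (4 accessions), a membrane protein of lysosomes, rose 1.49-fold. Atp1b1, a beta subunit of the sodium pump, rose 1.596-fold, from 1092 and 1064 to 1728 and 1712 CPM. Trpm6, a magnesium channel, rose 3.79-fold, from 21.8 and 21.03 to 76.3 and 85.6 CPM.

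Of 73 glycosyltransferase genes, which build cell-surface sugars, 23 rose and 24 fell, both shares above those of all tested genes. St8sia2, which makes polysialic acid, was read at 6.04 and 4.14 CPM in DMSO and 99.3 and 103 CPM with dTAG and rose 20.7-fold (edgeR adjusted p = 1.3e-19). St8sia1, which makes ganglioside GD3, rose 2.88-fold, from 42.8 and 42.2 to 125 and 119.8 CPM. Fut9, which makes the SSEA-1 sugar used to mark mouse ES cells, was read at 196 and 193 CPM in DMSO and 54.5 and 53.02 CPM with dTAG and fell 3.62-fold. Has2, which makes hyaluronan, rose 10.3-fold, from 0.1404 and 0.352 to 3.61 and 2.22 CPM.

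**Figure D2:**
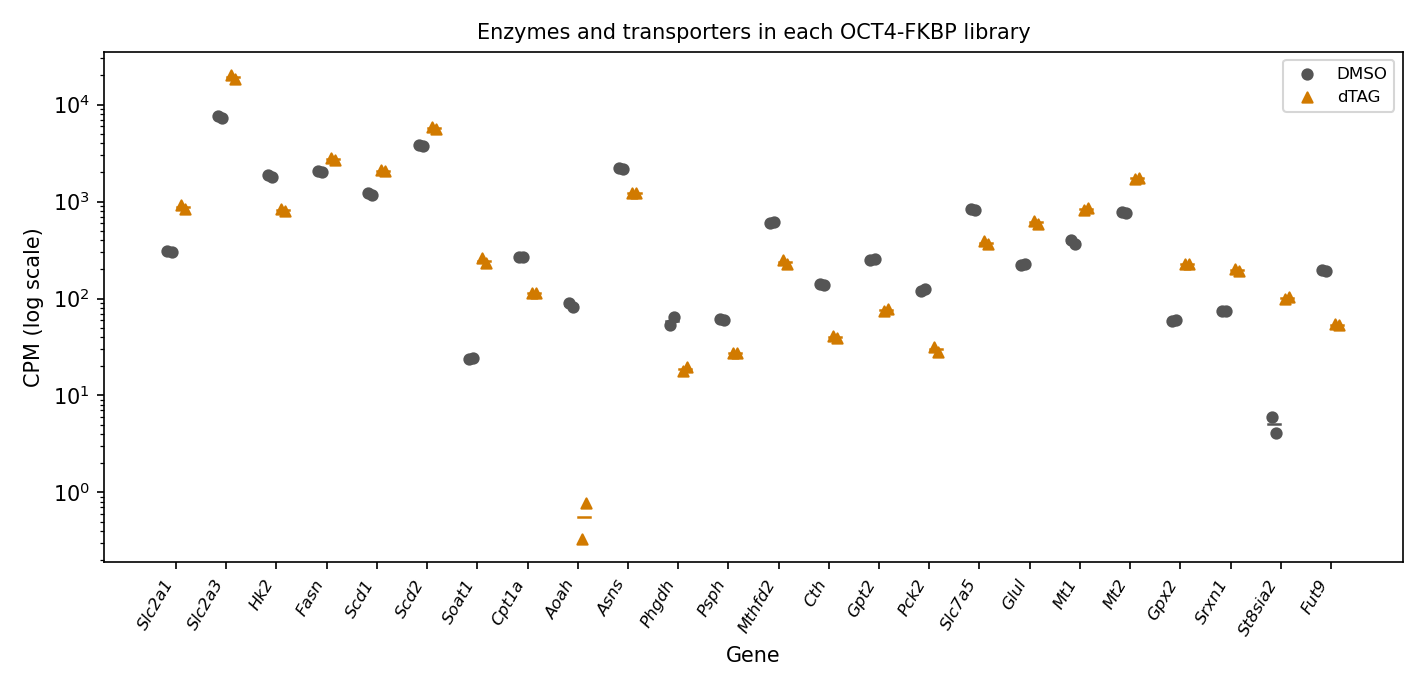
CPM (log scale) of 24 enzyme, transporter and metallothionein genes in each OCT4-FKBP library; circles are DMSO, triangles dTAG, and short lines the mean of the 2 libraries of a group. Slc2a1 and Slc2a3 are higher and Hk2 lower with dTAG, amino acid genes from Asns to Slc7a5 are lower, and St8sia2 rises from 6.04 and 4.14 to 99.3 and 103 CPM.

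Chromatin genes changed about as often as other genes: of 185 tested, 41 rose (22.2%) and 38 fell (20.5%). Of these, 8 and 3 were past 2-fold, against 599 of 2077 and 716 of 2098 over all tested genes. Such shares vary with level: at 100 CPM or more, 63 of 667 higher and 49 of 644 lower calls were at least 2-fold. The part of level in the chromatin counts was not tested. Tet1, which oxidizes methylated cytosine, fell 1.61-fold, from 1649.9 and 1528 to 960.4 and 1007 CPM, and Dppa3, which guards maternal methylation, 1.89-fold, from 245 and 246 to 129 and 130.0 CPM. In Polycomb, 5 of 23 rose and 7 fell (DESeq2 5 and 4). Eed, a subunit of PRC2, fell 1.58-fold, from 460.5 and 484 to 294 and 304 CPM. Smarca2 (3 accessions), the BRM helicase of SWI/SNF, rose 2.42-fold, from 10.9 and 10.3 to 25.5 and 25.7 CPM. Kdm3b, a histone H3 lysine 9 demethylase, fell 1.595-fold, from 620.2 and 603 to 389 and 378 CPM.

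Genes of growth and the cell cycle fell more often than they rose, 176 against 76 of 612, or 28.8% and 12.4%. Ribosome biogenesis genes, which make and assemble ribosomal RNA, stood out in count with 33 of 55 lower and 1 higher, at a median of -0.22. Gnl3 (2 accessions), nucleostemin, fell 1.65-fold and Polr1b, a subunit of RNA polymerase I, 1.39-fold, from 300.4 and 292 to 220.4 and 204 CPM. Ncl, nucleolin, fell 1.19-fold, from 6885 and 6809 to 5684 and 5778 CPM. The member that rose was Ltv1, an assembly factor of the small subunit, from 323 and 316 to 521 and 522 CPM. Of 74 cytosolic ribosomal protein genes, many of which have processed copies, 0 rose and 11 fell, or 0 and 17 with library size only. The share lower, 14.9%, was below the 20.3% of all tested genes. With library size only, 17 of 74 fell against 2255 of 10311 tested genes, which reversed that order. Whether these genes fell less often than genes at large thus depends on the scaling.

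Cell division genes that changed mainly fell, by small amounts. Of 38 mitosis genes, 1 rose and 17 fell (DESeq2 0 and 14), with a median of -0.17 and 0 of them 2-fold. Kif18a, a kinesin that aligns chromosomes, fell 1.45-fold, from 138 and 132 to 91.3 and 95.05 CPM, and Cdk1 1.21-fold, from 530.0 and 550.0 to 445 and 451 CPM. Of 41 DNA replication genes, 2 rose and 12 fell (DESeq2 1 and 8; 1 and 15 with library size only). Ccnd2, a D-type cyclin, rose 6.64-fold, from 2.25 and 2.904 to 16.96 and 18.3 CPM, and Cdkn1a (2 accessions), the CDK inhibitor p21, rose from 1.97 and 4.58 to 12.6 and 10.1 CPM.

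Of 40 p53 target and BCL2 family genes, 15 rose and 8 fell (DESeq2 14 and 5). Plk3 (2 accessions), a stress-induced kinase, was read at 0.281 and 0.968 CPM in DMSO and 9.19 and 8.54 CPM with dTAG, and Casp6, a caspase, at 23.6 and 21.9 CPM in DMSO and 67.96 and 69.5 CPM with dTAG. Btg2, which slows division, rose 2.29-fold, from 82.8 and 84.9 to 195 and 189 CPM. Bid, which promotes cell death, fell 1.97-fold, from 221 and 217 to 111 and 111 CPM. The chaperone genes Hsp90aa1 and Fkbp4 fell 1.42- and 1.32-fold. Over the 68 tested chaperone genes, 12 rose and 15 fell (DESeq2 6 and 13), near the 20.1% and 20.3% of all tested genes.

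Of 56 splicing and RNA-binding genes, 18 rose and 5 fell, or 15 and 8 with library size only. Lin28a, which blocks let-7, was read at 81.7 and 87.9 CPM in DMSO and 469.9 and 443 CPM with dTAG. Zfp36, which destabilizes mRNAs with AU-rich elements, rose 3.18-fold, from 12.9 and 9.33 to 33.6 and 35.05 CPM, and its relative Zfp36l3 5.62-fold. Of 45 germline and preimplantation genes, 8 rose and 20 fell (DESeq2 4 and 15). Tdrd12, of the piRNA pathway, fell 3.54-fold, from 137 and 135 to 37.6 and 39.2 CPM, and Nlrp4c, an oocyte gene of a family with similar copies, rose from 1.97 and 3.696 to 35.5 and 28.9 CPM.

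**Figure D3:**
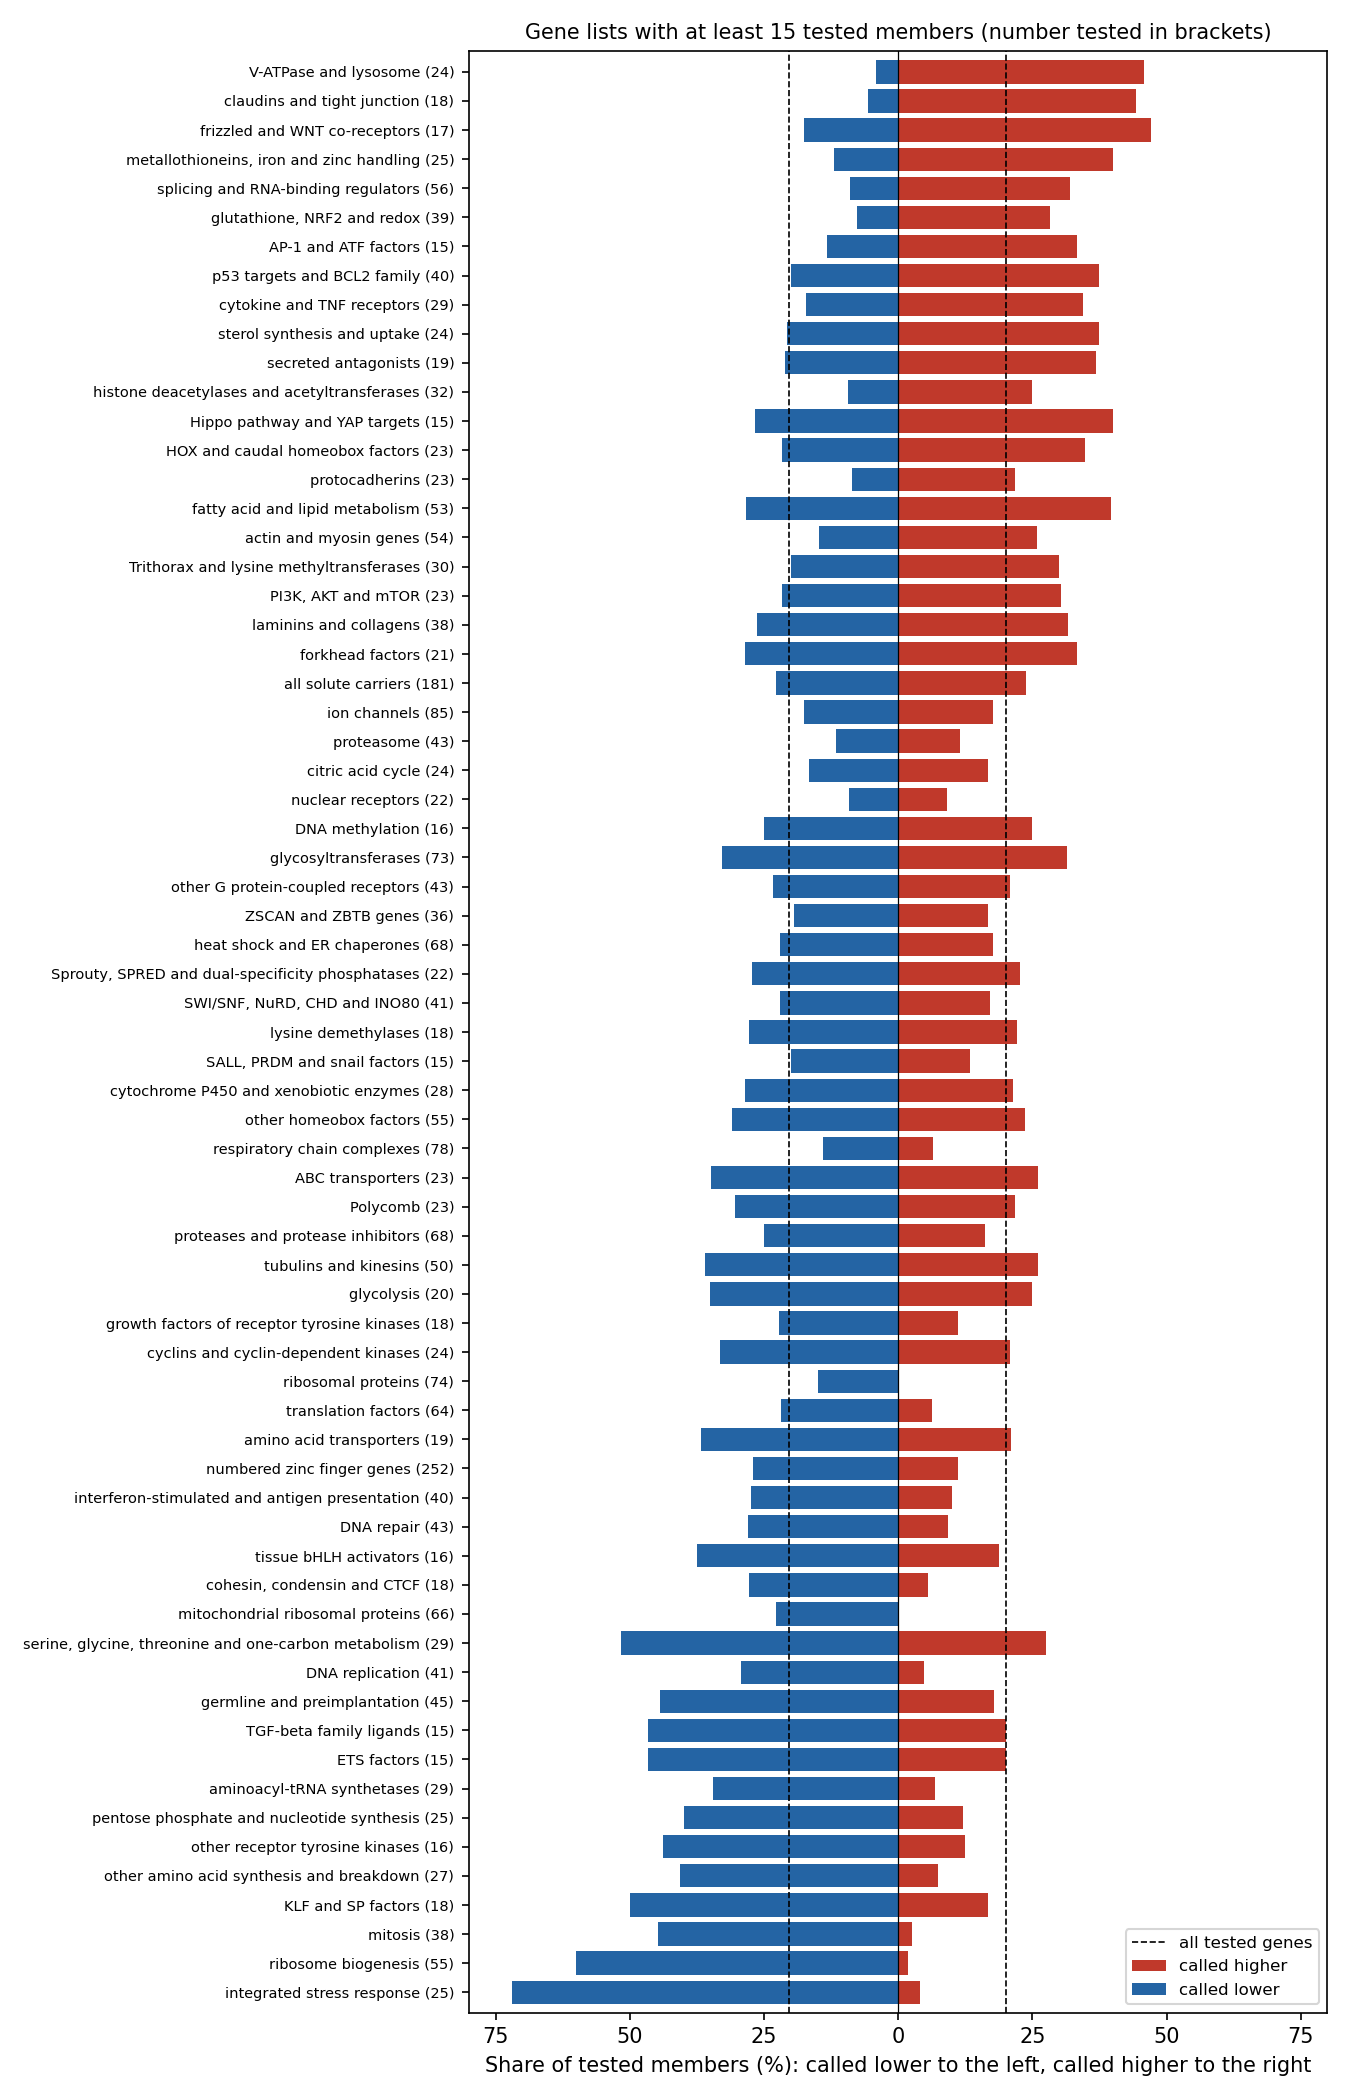
Share of tested members called higher (red, to the right) and lower (blue, to the left) for gene lists with at least 15 tested members, ordered by the difference of the shares, with the number tested in brackets; dashed lines mark the 20.1% and 20.3% of all tested genes. V-ATPase and lysosome genes lie at the upper end and ribosome biogenesis and integrated stress response genes at the lower end.

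**Figure D4:**
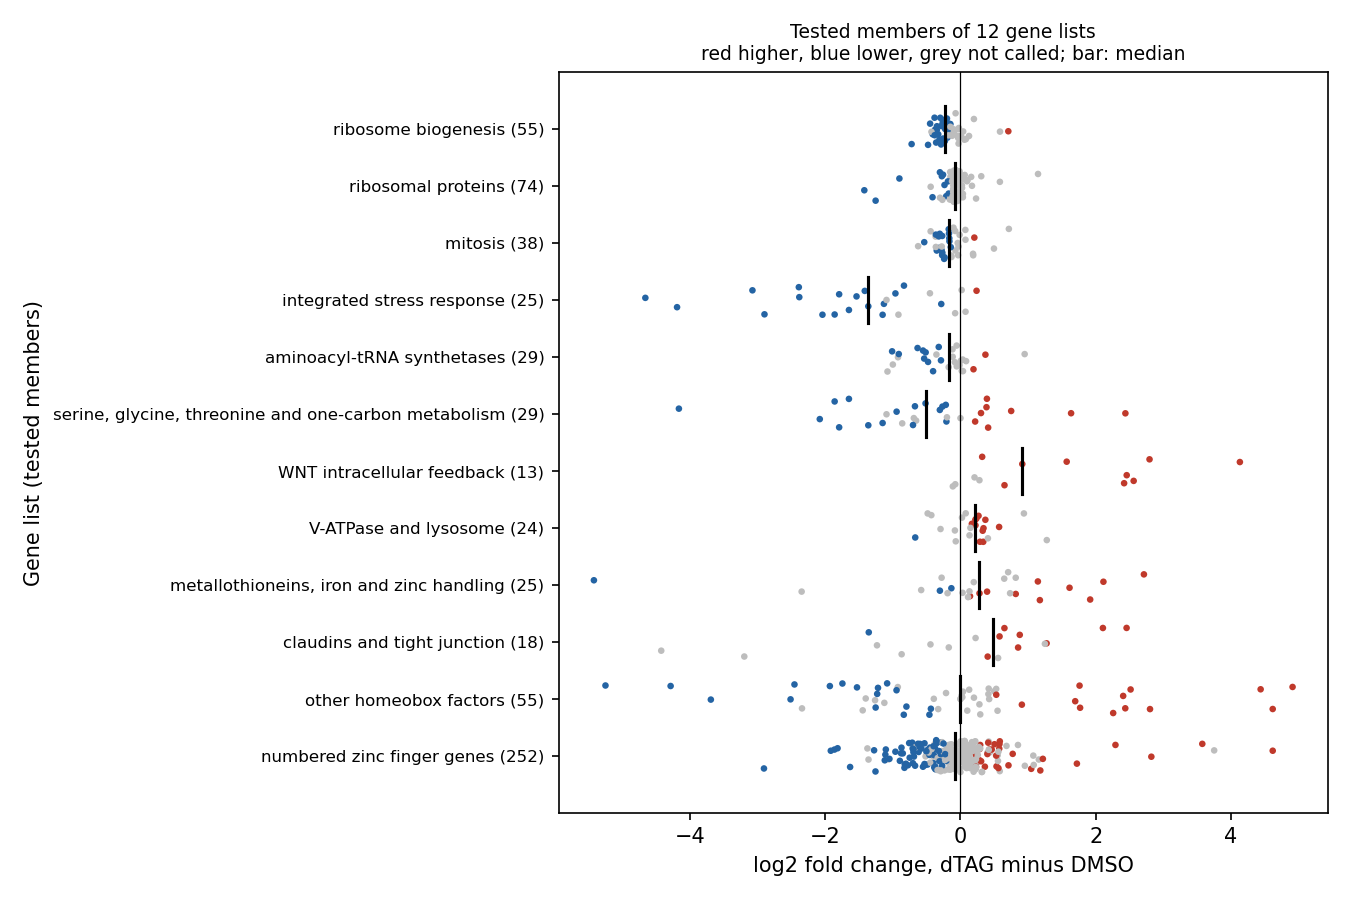
Log2 fold change, dTAG minus DMSO, of each tested member of 12 gene lists (red called higher, blue lower, grey not called), with a bar at the median of the list and points spread vertically for legibility. Ribosome biogenesis and mitosis genes form narrow groups just below 0, integrated stress response genes spread from near 0 to far below it, and homeobox genes spread widely on both sides.

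The lists of these 2 plots overlap in some members and were chosen with earlier results of these data known, so their counts describe these libraries. Among markers of other cell types, fibroblast markers summed to 33.1 and 30.3 CPM in DMSO and 24.6 and 21.8 CPM with dTAG, with Dcn and Postn at 0 reads. Blood and endothelial markers summed to at most 11.8 CPM in any of the 4 libraries, with Ptprc, Pecam1 and Hbb-b1 at 0 reads. Neural markers were read at higher summed levels, 443 and 451 CPM in DMSO and 379.7 and 378.5 CPM with dTAG, and 2 of 8 tested rose and 4 fell; 2 listed neural markers had 0 reads. Of 10 primitive streak markers, 1 rose and 3 fell, and their summed level was 32.6 and 28.3 CPM in DMSO and 15.9 and 15.2 CPM with dTAG. Counts of 0 among these markers do not show that a gene was silent, and the part of these markers in the results was not tested.

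Some changed genes lay side by side. Taking the order of all genes in the RefSeq table (GRCm38.p6, used for order alone), 3 runs of at least 3 consecutive genes changed at least 2-fold in 1 direction. Zic5, 2610035F20Rik and Zic2 on chromosome 14 fell, as did Lrrc34, Lrriq4 and Lrrc31 on chromosome 3, while Il2rg, Med12 and Nlgn3 on chromosome X rose. Med12, a Mediator subunit, went from 129.6 and 126 to 305 and 288 CPM and its neighbour Il2rg (2 accessions), a cytokine receptor chain, from 0.983 and 1.58 to 6.79 and 6.32 CPM. Whether reads past the end of one gene reach the next was not tested. Counting tested genes alone, 9 runs rose and 19 fell. They include the metallothionein genes Mt4, Mt2 and Mt1 on chromosome 8, and Khdc1a, Khdc1c and Khdc1b on chromosome 1, a family with near-identical copies, of which Khdc1a rose from 10.2 and 10.6 to 53.8 and 56.8 CPM.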

How the data were processed

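RNA-seq of 8 libraries, 2 in each of 4 groups, was used. The deposited counts are whole-number read counts per RefSeq accession; HISAT2, HTSeq and the mm9 build are named, without versions, per the submitters' processing notes. The strand setting of the counting and the rule for reads on several accessions are not given in the sources used here; in the 4 OCT4-FKBP libraries ambiguous reads were 42.2 to 42.6% of counted plus ambiguous reads, and reads without a feature 13.4 to 14.9% of the sum of counted, ambiguous and no-feature reads. These lines were dropped and counts were summed over accessions of a gene name, giving 24918 genes. Library totals were 7221451 to 11447468 counted reads, and low genes are limited by counting error.

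One model of 4 groups was fitted over the 8 libraries with edgeR 4.0.16 (R 4.3.3, TMM scaling, filterByExpr, quasi-likelihood test, Benjamini-Hochberg adjustment over 10311 genes), and dTAG was contrasted with DMSO. SE was taken as the size of the log2 fold change over sqrt(F). On simulated counts for this contrast over 10311 genes with 200 changed, 70.1% of 1.5-fold and 97.7% of 2-fold or 4-fold changes were recovered, with 12 false calls. The changed genes were drawn only from genes above a minimum level, and all genes were given the same spread between replicates. These figures therefore do not cover changes of the lowest tested genes or genes of larger spread.

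The 108 gene lists and 8 marker lists were chosen with earlier results of these data known, and 3 list patterns were corrected after values were seen. Named genes are Pou5f1; the 12 largest changes each way among called genes averaging 5 CPM or more whose groups do not overlap; per list up to 6 members of smallest adjusted p that changed at least 2-fold, or else 1 called member; and tested markers. Further genes are listed in the report as chosen after their values were seen. For genes with at most 3 reads in a group, ratios of summed reads replace fitted folds, with exact 95% intervals that cover counting error only, and a count of 0 was set to a floor of 3 reads over the group. Alternatives were DESeq2 1.42.0, other scalings and filters, the 4 OCT4-FKBP libraries alone, a replicate block, leaving out each library, and genes with 1 accession. Gene order and promoters come from RefSeq tables of GRCm38.p6, matched by gene name; no coordinates were moved between builds. Results for a few genes and 1 list are not reported here.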

Additional observations from a re-analysis of the deposited data

How the results depend on the processing

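The 4 counts of called genes stayed within 1.5 times their value in all 16 alternatives. Leaving out 1 library at a time gave 1587 to 2320 genes higher and 1609 to 2318 lower, of which 539 to 642 and 646 to 739 changed at least 2-fold. The other alternatives gave 1617 to 2318 higher and 1542 to 2344 lower, with 427 to 668 and 484 to 769 past 2-fold; the lower ends of the first pair came from DESeq2. With a replicate block over the 8 libraries, 2100 genes were higher and 2114 lower, 592 and 702 of them at least 2-fold. Across genes, the deviations of same-numbered DMSO and dTAG libraries had a correlation of 0.015. These deviations include counting error and come from 2 libraries a group, so the value cannot show whether the numbers pair the samples. Of 462 genes named by the rule or chosen later, 440 were called, 385 of these kept the call in every alternative that could be run and 55 lost it in at least 1; 0 reversed. Of the 22 not called, 4 passed in at least 1 alternative. DESeq2 called fewer genes in many lists, and the report gives its counts beside each list there that it moved by over 1.5 times. In the list of PI3K, AKT and mTOR genes, scaling by library size alone turned 7 higher and 5 lower into 6 and 8. With 2 libraries a group, small changes of low genes were not detectable, and genes with several accessions may be counted in part.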
